A study of Homo sapiens with 6 samples.

Results

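A set of 10 genes was followed through RNA sequencing of PC-3 cells, a human prostate cancer line grown from a bone metastasis. The genes code for translation elongation factors and for other proteins whose mRNAs belong to the TOP class without being ribosomal proteins. They are EEF1A1, EEF1B2, EEF1D, EEF1G, EEF2, PABPC1, NPM1, TPT1, EIF4B and NACA. Rows were taken by gene name, which found 9 of the 10 genes among 19491 rows, and EEF1G was not analysed here. The set was selected on measured values, with the CPM of these libraries and their differences from the control already known, so those differences from the control are given as descriptions and carry no test.

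The cells were kept in medium with 10% serum and were either left without an inhibitor or exposed for 48 h to GPNA at 1 mM or to BenSer at 10 mM. GPNA is a nitroanilide derivative of glutamine and BenSer is a serine that carries a benzyl group. Both were used as inhibitors of ASCT2 (SLC1A5), a transporter that brings glutamine and other neutral amino acids into cells, and the study asked how gene expression responds when that uptake is blocked. The 2 compounds were used at different doses, so their values are set side by side and a difference between them is not a difference at a matched dose. They may also differ in their targets. The paper proposes that BenSer has effects apart from ASCT2, and states that in oocytes it blocked the transporter LAT1 as well. All the cells came from 1 line.

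TOP mRNAs begin with a cytosine followed by an unbroken run of pyrimidines (5' terminal oligopyrimidine). They code for most of the proteins of the translation machinery, and the kinase complex mTORC1, which responds to amino acids, controls how well they are translated. The protein LARP1 binds the start of these mRNAs, holds back their translation when mTORC1 is inactive and also affects their stability. RNA sequencing measures the level of each mRNA and not its translation.

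The first bases of the transcripts are shown because they are what defines the class. For 7 of the genes, the RefSeq start (from a table of GRCh38.p14) was located by its sequence in GRCh37 and coincided with the start of the canonical GENCODE transcript. Each line below gives 10 bases before that start and 20 bases from it, 5' to 3' on the strand of the gene, with the pyrimidine run from the start in capitals.
EEF1A1, minus strand, chr6:74230736-74230765: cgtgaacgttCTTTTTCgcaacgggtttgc
EEF1B2, plus strand, chr2:207024609-207024638: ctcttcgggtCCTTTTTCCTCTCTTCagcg
EEF2, minus strand, chr19:3985442-3985471: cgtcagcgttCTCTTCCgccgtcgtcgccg
NPM1, plus strand, chr5:170814843-170814872: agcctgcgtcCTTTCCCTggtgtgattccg
TPT1, minus strand, chr13:45915299-45915328: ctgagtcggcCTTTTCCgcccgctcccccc
EIF4B, plus strand, chr12:53400230-53400259: tcatccgggtCTTTTgcgttctctttccct
NACA, minus strand, chr12:57119064-57119093: ctcgctcggtCTTTCTgccgccatcttggt

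All 7 transcripts started with a C. The run was longest in EEF1B2, with 16 bases, and shortest in EIF4B, with 5 bases. In EEF1A1, EEF2 and TPT1 the run had 7 bases, in NPM1 it had 8 and in NACA it had 6. A C at the start followed by at least 4 bases that are C or T, read on the transcribed strand only, was present in 7 of these 7 windows and in 1429 of 35116 RefSeq windows (4.07%). Counted by gene instead, in any RefSeq window of a gene, it was present in 778 of 10923 genes with enough reads (7.12%). It was present in 98 of 698 genes of at least 100 CPM in the control (14.0%). Among cytosolic ribosomal proteins the count was 48 of 67 genes (71.6%). CPM are the reads of a gene per 1000000 reads of its library. The letters describe the annotated start and not the start used in these cells.

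Libraries held 23077986 to 32178154 reads, of which 51.6% to 52.7% lay on the listed genes, and the BenSer libraries were the deepest. Each group had 2 labelled libraries. The 2 columns of a group differed by hardly more than the sampling of reads, the chi-square over genes being 1.05 to 1.06 times its degrees of freedom within groups and 8.89 to 35.3 times between them. Each group thus counts as 1 sample, no difference here has a replicate check, and intervals cover counting error only. The epithelial markers KRT8 (289 CPM in the control), KRT18 (109 CPM), EPCAM (97.8 CPM) and CDH1 (87.3 CPM) were present beside VIM (187 CPM), while the fibroblast genes COL1A1 and COL3A1 were at 5.57 and 0.906 CPM.

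With BenSer, all 9 genes were lower than in the control. The differences ran from 4.18% lower for TPT1 to 35.6% lower for EEF1B2, and in every gene both BenSer columns lay below both control columns. The share of all genes with columns apart in this way was not counted, so nothing is read from it. With GPNA, 5 genes were lower and 4 were higher, and no gene differed by 1.2-fold. The lower genes with GPNA were PABPC1, NPM1, EEF1D, EEF1B2 and EEF2, and the higher ones were EEF1A1, EIF4B, TPT1 and NACA. Summed over the 9 genes, the level was 5824 and 5805 CPM in untreated cells, 5711 and 5656 CPM under GPNA and 4535 and 4541 CPM under BenSer.

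Differences are given on the scale of log2(mean CPM + 1). All 9 genes had enough reads to be compared, a mean of 5 in either group, with at least 5125 merged reads per group. Between the 2 columns of a group, the level of a gene differed by 0.0977% to 4.12%, with a median of 0.884%. Values of CPM compare 1 gene between groups. Per kilobase of the canonical transcript, the control level was highest for NPM1 (741 CPM per kb) and EEF1A1 (655 CPM per kb), followed by PABPC1 (338 CPM per kb), EEF2 (229 CPM per kb) and EEF1B2 (190.0 CPM per kb). EIF4B (76.9 CPM per kb) and EEF1D (63.9 CPM per kb) were lower. TPT1 and NACA had 33.3 and 17.3 CPM per kb, but these rest on canonical transcripts of 4548 and 6387 bp, and shorter transcripts of these genes would give higher levels.

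**Figure D1:**
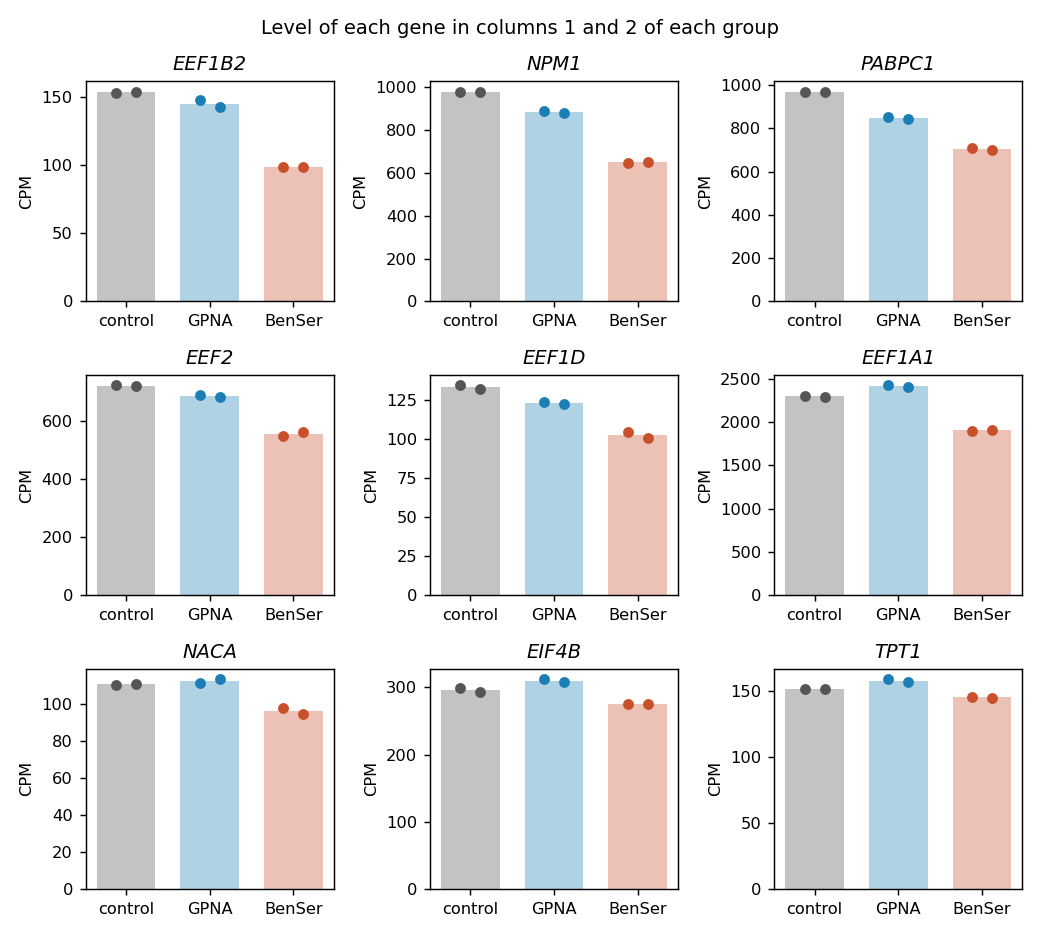
Level of each of the 9 genes in CPM (vertical axis, starting at 0, a scale of its own in each panel) for the control, GPNA and BenSer groups. Points are columns 1 and 2 of a group and bars are their mean. All BenSer points lie below the control points, by 35.6% in EEF1B2 and by 4.18% in TPT1 on the means.

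The elongation factor eEF1A, which brings aminoacyl-tRNA to the ribosome, is coded by EEF1A1, the gene with the most reads in the set. EEF1A1 had 2300.3 and 2297 CPM in untreated cells, 2427 and 2405 CPM under GPNA and 1903 and 1910 CPM under BenSer. It was thus highest with GPNA and lowest with BenSer, with no overlap between groups. The log2 difference from the control was 0.072 under GPNA (95% interval 0.060 to 0.084) and -0.27 under BenSer (-0.28 to -0.26).

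The exchange factor eEF1B recharges eEF1A with GTP, and EEF1B2 codes for its alpha subunit. EEF1B2 had 153 and 154 CPM in untreated cells, 148 and 143 CPM under GPNA and 98.8 and 99.0 CPM under BenSer. Its BenSer level was the farthest below the control of the 9 genes. The log2 difference was -0.078 under GPNA (-0.13 to -0.032) and -0.63 under BenSer (-0.68 to -0.59). EEF1D codes for the delta subunit of the same complex, also an exchange factor. EEF1D had 135 and 132 CPM in untreated cells, 124 and 123 CPM under GPNA and 105 and 101 CPM under BenSer. It was stepwise lower from the control through GPNA to BenSer, with log2 differences of -0.11 (-0.16 to -0.060) and -0.37 (-0.43 to -0.33).

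EEF2 codes for the factor that moves the ribosome along the mRNA after each peptide bond. EEF2 had 725 and 722 CPM in untreated cells, 689.9 and 686 CPM under GPNA and 551 and 564 CPM under BenSer. The order of the groups was as in EEF1D. The log2 difference was -0.073 under GPNA (-0.095 to -0.051) and -0.38 under BenSer (-0.40 to -0.35).

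The poly(A) tail is bound by the protein of PABPC1, which links it to the initiation complex at the cap. PABPC1 had 970.3 and 966 CPM in untreated cells, 850.5 and 844 CPM under GPNA and 711 and 702 CPM under BenSer. It had the lowest difference of the set with GPNA, 12.5% below the control, at -0.19 on the log2 scale (-0.21 to -0.17). With BenSer its log2 difference was -0.45 (-0.47 to -0.44). EIF4B codes for an initiation factor that stimulates the helicase eIF4A. EIF4B had 299 and 294 CPM in untreated cells, 312 and 308 CPM under GPNA and 275.0 and 275.4 CPM under BenSer. It was highest with GPNA, at 0.066 above the control on the log2 scale (0.033 to 0.099), and lowest with BenSer, at -0.11 (-0.14 to -0.075).

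NPM1 codes for nucleophosmin, a nucleolar chaperone of ribosome assembly. NPM1 had 980.2 and 977 CPM in untreated cells, 888 and 878 CPM under GPNA and 648 and 651 CPM under BenSer. Next to EEF1B2 it was the lowest of the set with BenSer, 33.6% below the control. The log2 difference was -0.15 under GPNA (-0.17 to -0.13) and -0.59 under BenSer (-0.61 to -0.57). NACA codes for the alpha subunit of the nascent polypeptide-associated complex, which binds new chains as they leave the ribosome. NACA had 110.3 and 111 CPM in untreated cells, 112 and 113 CPM under GPNA and 97.9 and 94.5 CPM under BenSer. Its interval under GPNA included 0 (0.023, -0.031 to 0.078), and the difference under BenSer was -0.20 (-0.26 to -0.15).

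The growth-related protein TCTP is coded by TPT1. TPT1 had 151 and 151 CPM in untreated cells, 159 and 156 CPM under GPNA and 146 and 144 CPM under BenSer. Both differences were small, at 0.059 with GPNA on the log2 scale (0.013 to 0.11) and -0.061 with BenSer (-0.11 to -0.017). Of the 9 genes, TPT1 was the least below the control with BenSer, and 44% of all genes compared lay at or below its difference. For EEF1B2 that share was 1.09% and for NPM1 1.5%.

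**Figure D2:**
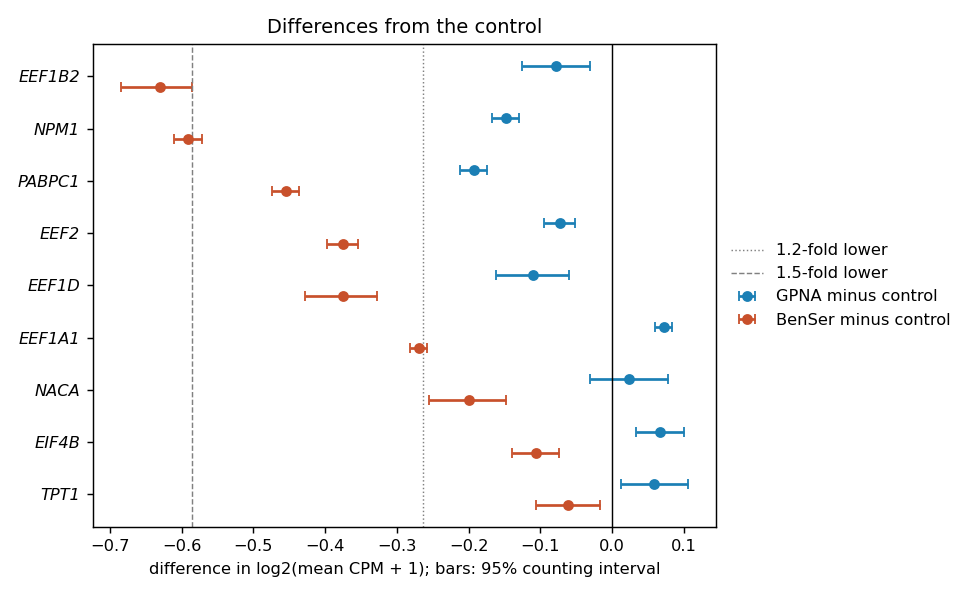
Difference from the control in log2(mean CPM + 1) (horizontal axis) for each gene (vertical axis), with GPNA in blue and BenSer in orange. Bars are 95% counting intervals and the vertical lines mark 1.2-fold and 1.5-fold lower. EEF1B2 at -0.63 and NPM1 at -0.59 are past the 1.5-fold line with BenSer, though the interval of NPM1 crosses it, and no gene reaches the 1.2-fold line with GPNA.

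Read against all genes, the counts differ between the treatments. With GPNA, 5 of the 9 genes were lower, where 56.7% of 18828 genes were lower by any amount. None of the 9 was 1.2-fold lower with GPNA, where 5.86% of all genes were, nor 1.5-fold lower, where 0.0637% were. With BenSer, 9 of 9 were lower, against 55.4% of 18976 genes. Of these, 6 were at least 1.2-fold lower, namely EEF1A1, EEF1B2, EEF1D, EEF2, PABPC1 and NPM1, against 15.0% of all genes. EEF1B2 and NPM1, 2 of the 9, were at least 1.5-fold lower, against 1.58% of all genes. Among the 941 genes of at least 100 CPM in untreated cells, where all 9 belong, 30.8% were 1.2-fold lower under BenSer and 4.89% under GPNA. Of these 941 genes, 652 were lower by any amount under BenSer and 695 under GPNA. At least 1.5-fold lower were 36 under BenSer and 1 under GPNA. The median log2 difference of the 9 genes was -0.073 with GPNA and -0.37 with BenSer, beside -0.028 and -0.028 over all genes and -0.075 and -0.12 over the genes of at least 100 CPM. Since the genes were chosen with these comparisons known, nothing is read from their counts.

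The background itself depends on the scaling of the libraries. Of all genes past 1.2-fold with GPNA, 53.1% were lower on the scale of library totals, 39.2% after TMM scaling and 39.5% with DESeq2 size factors. With BenSer the shares were 59.1%, 48.4% and 48.1%. The direction of each of the 9 genes was the same under these scalings and under scaling by the total of the listed genes. Their median with GPNA was -0.033 with TMM, -0.035 with DESeq2 size factors and -0.043 with the listed total, in place of -0.073, and with BenSer it was -0.33, -0.33 and -0.36, in place of -0.37. With BenSer, TPT1 came closest to 0, at -0.013 with DESeq2 size factors. EEF1A1, at 1.206-fold lower on library totals, was under 1.2-fold with each of the other 3 scalings. NPM1 was then under 1.5-fold with all 3 and EEF1B2 with 2 of them, TMM and DESeq2.

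**Figure D3:**
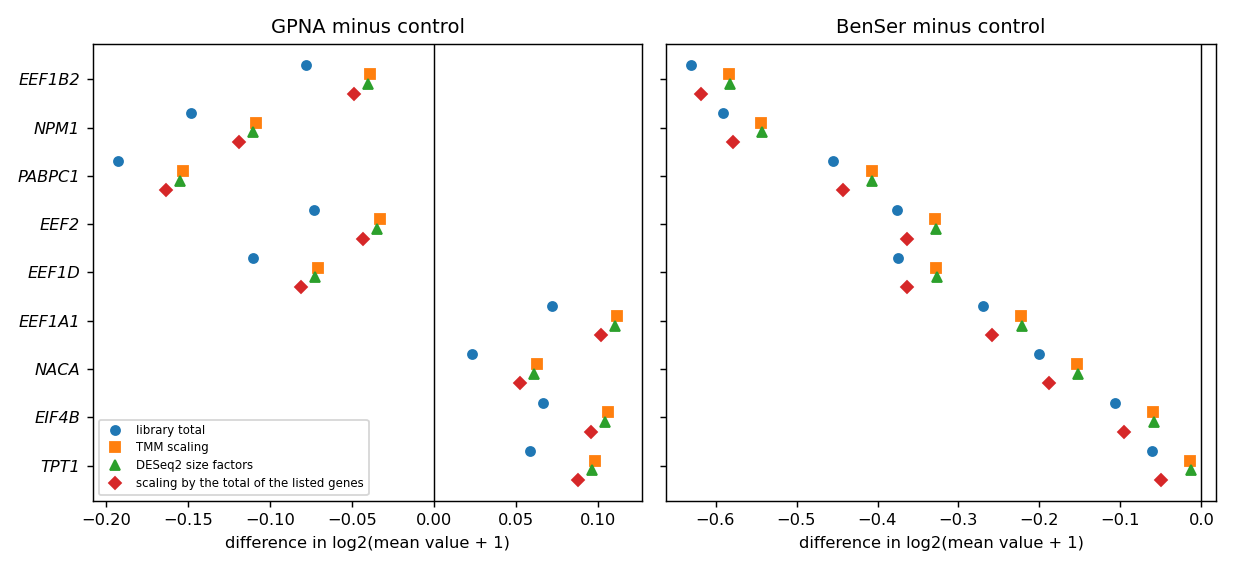
Difference from the control in log2(mean value + 1) (horizontal axes, a different range in each panel) for each gene under 4 scalings of the libraries, marked by shape. Other scalings shift all genes to the right by about the same amount, and none crosses 0, the nearest being TPT1 with BenSer at -0.013.

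When the treatments were set directly beside each other, at their different doses, all 9 genes were lower with BenSer than with GPNA, where 52.1% of 19056 genes were lower. The log2 difference ran from -0.55 in EEF1B2 to -0.12 in TPT1, with a median of -0.26. At least 1.2-fold lower were 5 genes (EEF1A1, EEF1B2, EEF1D, EEF2 and NPM1), against 11.0% of all genes. PABPC1 was just outside that fold, at 1.199-fold lower, and EEF1D just inside it, at 1.203-fold. With TMM and with DESeq2 size factors EEF1D was outside, which left 4 genes. With the total of the listed genes PABPC1 was inside, at -0.28. None was 1.5-fold lower, against 0.813% of all genes. Of the 941 genes of at least 100 CPM in the control, 562 were lower with BenSer than with GPNA. Among them, 170 were at least 1.2-fold lower and 12 at least 1.5-fold lower. EEF1A1, EIF4B, TPT1 and NACA lay above the control in both GPNA columns and below it in both BenSer columns. The share of all genes with that pattern was not counted, so nothing is read from it.

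Ratios within a column do not depend on the scaling of the libraries. EEF1B2 and EEF1D, both exchange factors of the eEF1B complex, had an EEF1B2 to EEF1D ratio of 1.14 and 1.17 in the control columns. The ratio was 1.19 and 1.16 with GPNA and 0.943 and 0.983 with BenSer, so the BenSer columns lay below the others. The ratio of EEF1B2 to EEF1A1 was 0.0665 and 0.0671 in untreated cells, 0.0610 and 0.0594 under GPNA and 0.0519 and 0.0518 under BenSer. In this ratio the groups did not overlap, and both treatments were below the control.

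Relative to EEF1A1, the order of the groups differed between genes. PABPC1 to EEF1A1 was 0.422 and 0.421 in untreated cells, 0.350 and 0.351 under GPNA and 0.373 and 0.367 under BenSer, lowest under GPNA. NPM1 to EEF1A1 was 0.426 and 0.425 in untreated cells, 0.366 and 0.365 under GPNA and 0.340 and 0.341 under BenSer, lowest under BenSer. TPT1 to EEF1A1 was 0.0658 and 0.0659 in untreated cells, 0.0655 and 0.0650 under GPNA and 0.0765 and 0.0756 under BenSer. The transcripts of TPT1, EIF4B and NACA made up a larger part relative to EEF1A1 with BenSer. EIF4B had a ratio of 0.144 in both columns against 0.130 and 0.128 in the control. NACA had 0.0514 and 0.0495 with BenSer against 0.048 and 0.0483 in the control. NACA and BTF3, the alpha and beta subunits of 1 complex, had a ratio of 0.793 and 0.791 in untreated cells, 0.816 and 0.859 under GPNA and 0.800 and 0.793 under BenSer.

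**Figure D4:**
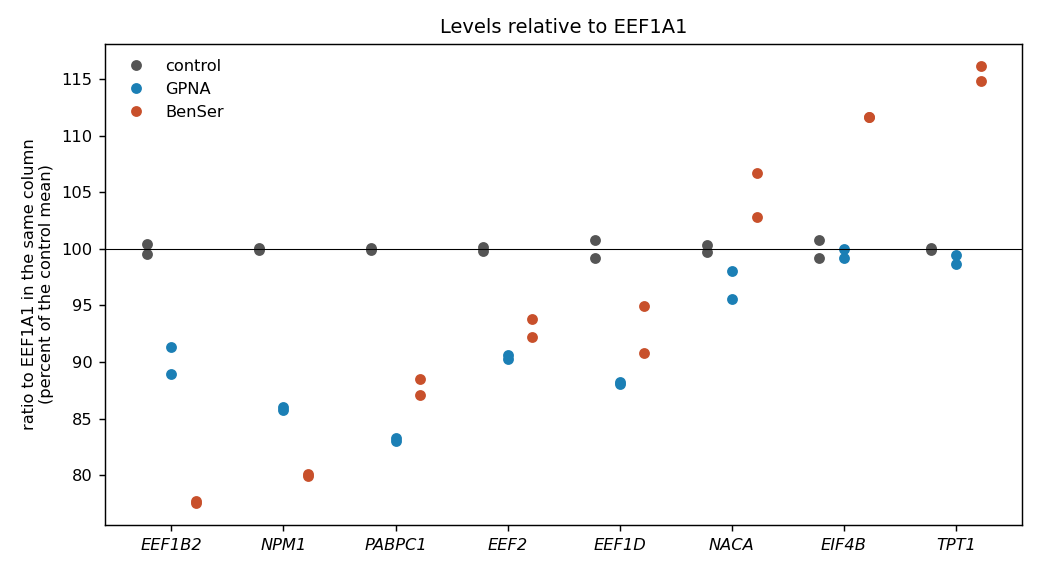
Ratio of each gene to EEF1A1 in the same column, as a percent of the mean ratio in the control (vertical axis, not starting at 0), for 8 genes (horizontal axis). Points are columns 1 and 2 of the control, GPNA and BenSer. With BenSer the ratios of EEF1B2 and NPM1 lie farthest below 100 and those of TPT1 and EIF4B farthest above it, while with GPNA the ratio of PABPC1 is the lowest.

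Cytosolic ribosomal proteins, the largest group of TOP mRNAs, had values for 84 genes with enough reads of 85 listed. The list was taken by name and includes paralogs whose names carry an L after the number. With BenSer, 83 of them were lower and 49 at least 1.2-fold lower, with a median log2 difference of -0.31. With GPNA, 49 were lower, none by 1.2-fold, with a median of -0.0099 that turned to 0.030 with TMM, 0.028 with DESeq2 size factors and 0.019 with the total of the listed genes. TMM left 83 lower with BenSer and 30 with GPNA. RPS23, a protein of the small subunit, was at the low end with BenSer, at -0.74 from 14.2 CPM in the control.

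**Figure D5:**
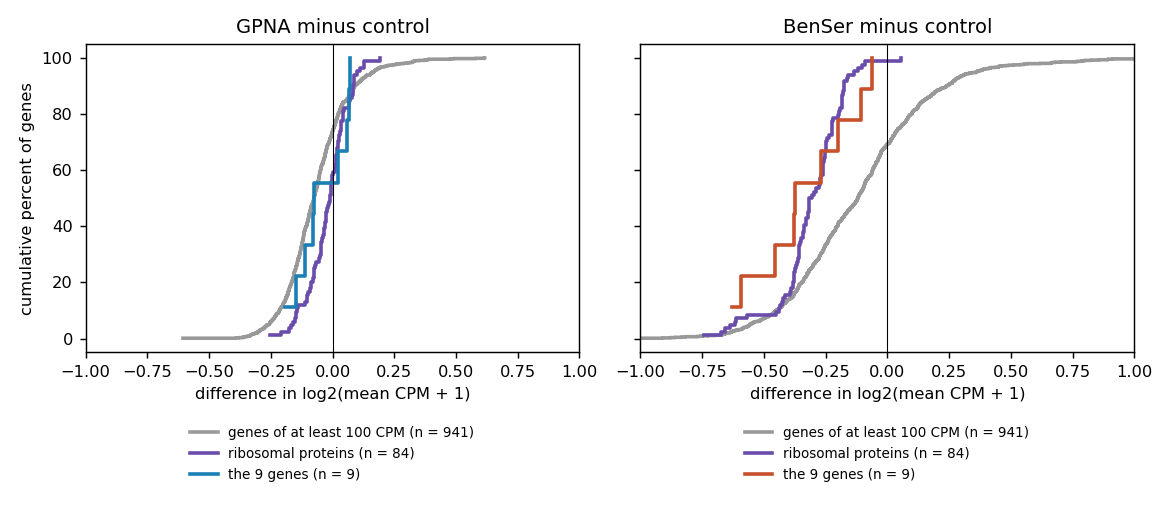
Cumulative percent of genes (vertical axis) by their difference from the control in log2(mean CPM + 1) (horizontal axis), for the 9 genes, the 84 cytosolic ribosomal proteins and the 941 genes of at least 100 CPM in the control. With BenSer the 9 genes and the ribosomal proteins lie to the left of the highly expressed genes over most of the range (medians -0.37, -0.31 and -0.12). With GPNA the medians are -0.073, -0.0099 and -0.075.

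Other mRNAs reported to be of the TOP class were EIF3E, EIF3F and EIF3H (subunits of the initiation factor eIF3), HNRNPA1 (a splicing regulator), NAP1L1 (a histone chaperone), GNB2L1 (RACK1, a ribosome-bound scaffold), VIM (vimentin) and BTF3. All 8 were lower with BenSer, 5 of them by 1.2-fold, with a median of -0.27. HNRNPA1 was the lowest, with 313 and 317 CPM in the control and 211 and 207 CPM with BenSer (-0.59). NAP1L1 was at -0.40, VIM at -0.38, GNB2L1 at -0.28 and EIF3E at -0.27 with BenSer. EIF3F was at -0.26, EIF3H at -0.24 and BTF3, the highest, at -0.21. With GPNA, 7 of the 8 were lower and none by 1.2-fold, with a median of -0.044 and a range from -0.11 in NAP1L1 to 0.062 in EIF3F. After TMM scaling all 8 were lower with BenSer (median -0.23), but 4 of the 8 with GPNA (median -0.0039).

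The start motif was also set beside the values of all genes of at least 100 CPM with a RefSeq window. The 98 genes with a C and at least 4 pyrimidines at the start had a median log2 difference of -0.26 with BenSer, and the 600 genes without had -0.10. With the 9 genes and the ribosomal proteins left out, 56 genes with the motif had -0.21 and 589 genes without had -0.096. With GPNA the medians of those 56 and 589 genes were -0.076 and -0.089. These medians are descriptions and the difference between them was not tested.

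Of the translation factors outside the set, most but not all were lower than in the control. Some genes are in more than 1 list, and EIF3E, EIF3F and EIF3H are counted here again. Of 38 initiation factors, 33 were lower with BenSer, 17 by at least 1.2-fold, with a median of -0.25. EIF2B3, a subunit of the exchange factor of eIF2, was lowest at -0.52, and EIF1, which helps to select the start codon, was highest at 0.12. With GPNA, 32 of the 38 were lower, 4 by 1.2-fold, with a median of -0.10. After TMM scaling 30 were lower with BenSer, 11 by 1.2-fold (median -0.21), and 25 with GPNA, 1 by 1.2-fold (median -0.065). Of 13 other elongation and termination factors, 10 were lower with BenSer, 5 by 1.2-fold (median -0.19), and 11 with GPNA, 3 by 1.2-fold (median -0.17). None of the 13 was 1.2-fold lower with GPNA under TMM, DESeq2 or listed-gene scaling, where 11 were still lower (median -0.14 with TMM). In that list GTPBP2, a GTPase that acts on stalled ribosomes, was highest under BenSer, at 25.3 CPM in untreated cells, 29.8 under GPNA and 33.1 under BenSer (0.37).

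EEF1A2, a paralog that codes for another eEF1A, was the lowest of that list. EEF1A2 had 112 and 114 CPM in untreated cells, 93.0 and 94.1 CPM under GPNA and 70.6 and 72.5 CPM under BenSer. It was below the control in both treatments, at -0.27 and -0.65, whereas EEF1A1 was at 0.072 and -0.27. The ratio of EEF1A2 to EEF1A1 was 0.0487 and 0.0497 in untreated cells, 0.0383 and 0.0391 under GPNA and 0.0371 and 0.0379 under BenSer.

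Paralogs and partner proteins of the set, EEF1A2 included, had values for 16 of 18 listed genes. With BenSer 13 were lower, 6 by at least 1.2-fold (median -0.22), and with GPNA 13 were lower, 2 by 1.2-fold (median -0.084). After TMM scaling 11 were lower with BenSer (median -0.17) and 10 with GPNA (median -0.048), with 6 and 0 past 1.2-fold. VARS, the valyl-tRNA synthetase that is bound to the eEF1B complex, was lowest under BenSer, at 66.3 and 70.8 CPM in untreated cells, 54.8 and 57.1 CPM under GPNA and 42.2 and 42.6 CPM under BenSer (-0.29 and -0.68). PAIP2, an inhibitor of the poly(A)-binding protein, was highest at 0.18.

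The kinase EEF2K, which inactivates eEF2, and the genes for diphthamide, the modified histidine of eEF2, made up a list of 8. All 8 were lower with BenSer, 1 by at least 1.2-fold, with a median of -0.17, and 6 with GPNA, 1 by 1.2-fold, with a median of -0.11. DPH6 was at least 1.2-fold higher with GPNA, at 0.29 from 3.97 CPM in the control. Its counting interval, 0.074 to 0.63, is for the ratio of reads without the added 1 and is not centred on 0.29. After TMM scaling 7 of the 8 were lower with BenSer. The GPNA median was -0.054 without control 1, -0.16 without control 2 and -0.069 after TMM scaling, which left no gene of the list 1.2-fold lower in either treatment. EEF2K was at -0.17 with GPNA and -0.16 with BenSer. With BenSer, DPH5 was at -0.29, DPH3 and DPH7 both at -0.24 and DPH2 at -0.18. DPH6 was at -0.17, DPH1 at -0.13 and DNAJC24 at -0.014 with BenSer, and their counting intervals included 0. EEF2K, the highest of these genes, averaged 20.3 CPM in the control, far below the set, so counting error is larger here.

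Elongation factors of the mitochondrion, listed as a contrast to the cytosolic ones, had 3 of 4 genes lower under BenSer (median -0.13) and 1 of 4 under GPNA (median 0.083, or 0.025 without GPNA 1). TUFM was at -0.14 with GPNA and -0.25 with BenSer, GFM1 at 0.062 and -0.24, GFM2 at 0.12 and 0.0034 and TSFM at 0.10 and -0.025. None was 1.2-fold different from the control in either treatment, and after TMM scaling 2 of the 4 were lower with BenSer (median -0.089).

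Genes that act on TOP mRNAs or in mTORC1 signalling had values for 20 of 21 listed. With BenSer 12 were lower and 8 higher, 4 and 2 of them by at least 1.2-fold, with a median of -0.069. After TMM scaling that median was -0.023, with 11 genes lower, 2 by 1.2-fold. With GPNA 15 were lower, none by 1.2-fold, with a median of -0.096, or -0.057 after TMM scaling. TIAL1, an RNA-binding protein, was lowest with BenSer, at -0.32 from 19.2 CPM in the control, and TSC1, a brake on mTORC1, was highest, at 0.38 from 32.2 CPM.

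By the distance between their 2 differences from the control and the medians of the 9 genes, the most alike of 932 other genes of at least 100 CPM were RPL6, DDX42, SLC25A6, LRPPRC and WDR43. RPL6, a ribosomal protein, had a distance of 0.0057, with -0.070 with GPNA and -0.38 with BenSer. The distances of the other genes were 0.0064 for DDX42, 0.0098 for SLC25A6, 0.013 for LRPPRC and 0.020 for WDR43. Both differences share the control libraries.

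In the GENCODE annotation of GRCh37, EEF1A1 lies on chromosome 6 (74199031 to 74235310, minus strand), EEF1B2 on chromosome 2 (207024309 to 207027652, plus strand) and EEF2 on chromosome 19 (3976054 to 3985461, minus strand). NPM1 lies on chromosome 5 (170814120 to 170838814, plus strand) and TPT1 on chromosome 13 (45907606 to 45915419, minus strand). EIF4B (53400066 to 53435999, plus strand) and NACA (57106089 to 57125412, minus strand) lie on chromosome 12. EEF1D (144661867 to 144681711) and PABPC1 (101698044 to 101735037) lie on the minus strand of chromosome 8.

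Some of these genes share bases with other genes or have processed copies, so part of their reads is uncertain. NACA shares exon bases on the same strand with PRIM1, a subunit of DNA primase, which had 15.7 CPM in untreated cells, 14.9 CPM under GPNA and 8.81 CPM under BenSer (-0.77). TPT1 holds SNORA31, a small nucleolar RNA, at 1.12 CPM in the control. MTO1 (10.1 CPM), TIGD5 (4.64 CPM) and RP11-983P16.4 (2.33 CPM) overlap EEF1A1, EEF1D and EIF4B on the opposite strand, and whether reads were counted by strand is not given in the sources used here. Pseudogene rows summed to at most 1.03% of the level of their gene, for 8 rows of EEF1A1 copies. Adding them to the gene left every direction as it was, with EEF1A1 at 0.070 and -0.27.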

How the data were processed

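Total RNA of PC-3 cells was sequenced by the authors with a stranded library kit (TruSeq). The submitters' processing notes name TopHat2, Bowtie2, HTSeq 0.6.2p2 and DESeq, and the build hg19/GRCh37.p13. The authors deposited 2 tables of 19491 genes with values in CPM, the reads of a gene per 1000000 reads of the library. Their log2 fold changes, average log2 CPM, p-values and false discovery rates were not used, nor were 8 of 16 value columns whose names match no labelled sample. The study's methods state tests on 4 replicates a group, of which the labels name 2. What the unused columns hold is not given in the sources used here. In the 6 libraries used, 100% of the CPM values were whole reads over the library total, within 0.01 of a read, so reads were recovered.

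Columns 1 and 2 of a group agree nearly within sampling noise (chi-square over 15623 to 16498 genes of at least 20 reads) and were counted as 1 sample, with no p-value for a treatment. Differences were taken in log2(mean CPM + 1) wherever at least 1 of the groups averaged 5 reads or more. Exact Clopper-Pearson intervals at 95% on merged reads cover counting error only. They are for the log2 ratio of reads over library totals, without the added 1, which matters for genes of a few CPM. Folds of 1.2 and 1.5 on that scale were counted.

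The members and the gene lists were chosen with earlier results of these data known. The text names all the members, in each list the gene highest and lowest with BenSer among those of at least 10 CPM in the control, every gene of lists of up to 8, and the 5 genes of at least 100 CPM nearest to the members' medians. A gene that this rule names is not reported here. Genes that overlap a member were named after their values were seen. Starts came from RefSeq and positions from GENCODE lifted to GRCh37.

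Alternatives were pseudocounts of 0.1 and 5, no filter, TMM, DESeq2 size factors, the total of the listed genes, leaving out each column, summed pseudogenes, and edgeR and DESeq2 on the recovered reads. R 4.3.3, edgeR 4.0.16, DESeq2 1.42.0, Python 3.11.15, numpy 2.4.6, pandas 2.3.3, scipy 1.17.1 and matplotlib 3.10.9 were used. The scripts were tested on simulated data.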

Additional observations from a re-analysis of the deposited data

Results flagged for a closer look

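For 4 of the 9 genes, both GPNA columns lay above both control columns and both BenSer columns lay below them. The difference between BenSer and GPNA was -0.34 on the log2 scale for EEF1A1, -0.12 for TPT1, -0.17 for EIF4B and -0.22 for NACA. The counting interval of NACA with GPNA included 0 (-0.031 to 0.078), and TPT1 with BenSer was at -0.013 with DESeq2 size factors. The share of all genes with this pattern was not counted and the genes were selected on these columns, so nothing is read from the count. With 1 sample per group and different doses, whether the treatments differ in these genes was not tested.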

How the results depend on the processing

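With a change of pseudocount, filter or scaling, a column left out or pseudogenes added, no member's difference turned its sign in any of 11 alternatives per gene and comparison. Most of these could not turn a sign. A pseudocount keeps it, the filter does not touch a member's value, and the columns of the groups compared never overlapped in a member. Only the scalings and the pseudogene sums could have turned it. Of the 99 values per comparison, 85 with GPNA, 84 with BenSer and 98 for BenSer against GPNA stayed within the counting interval. The number of members at least 1.5-fold lower with BenSer went from 2 to 0 with TMM, 0 with DESeq2 size factors and 1 with the total of the listed genes. With pseudocounts of 0.1 and 5, the genes at least 1.2-fold lower numbered 2761 and 281 with GPNA (1104 with a pseudocount of 1), 4750 and 1458 with BenSer (2853), and 4176 and 859 for BenSer against GPNA (2087). The genes at least 1.5-fold lower then numbered 652 and 2 with GPNA (12), 1397 and 102 with BenSer (300), and 1243 and 38 for BenSer against GPNA (155). Leaving out control 1, control 2, GPNA 1 or GPNA 2 gave 23 to 27 genes 1.5-fold lower with GPNA in place of 12. A single column has more counting error than a mean of columns.

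As a comparison of libraries at an adjusted p under 0.05, edgeR called 2318 genes lower and 946 higher with GPNA, 3992 and 2821 with BenSer, and 3108 and 3260 for BenSer against GPNA. DESeq2 called 534 and 445, 1939 and 2016, and 1567 and 1941 genes. The edgeR fits used library totals and DESeq2 its own size factors, so these counts differ in scaling as well as in method. DESeq2 left 8761 of 18828 genes without an adjusted p with GPNA. The number was 5519 of 18976 with BenSer and 5911 of 19056 for BenSer against GPNA. With the column number as a replicate block, edgeR called 2386 and 980, 3637 and 2558, and 3153 and 3323 genes. Calls of these tests on the 9 genes were planned but are not given, since the genes were selected on the same columns. Deviations of same-numbered columns correlated at 0.043 to 0.074 over 7550 genes, so the numbers were not taken to pair the samples. The 1 sample per group limits every value here, since the columns used do not show the spread between cultures.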
